A study of Mus musculus with 4 samples.

Results

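The insulin-like growth factor (IGF) system was followed through the cell classes of the mouse brain vasculature by its 10 genes Igf1, Igf2, Igf1r, Igf2r, Insr, Igfbp2, Igfbp3, Igfbp4, Igfbp5 and Igfbp7. They were taken by symbol from the 31053 genes of the count matrices. Brain vascular-associated cells (BVACs) were captured with magnetic beads against CD31 from brains of male wild-type C57BL/6 mice, 12 to 14 weeks old, without cerebellum, striatum, brainstem and olfactory bulbs, and read by droplet 3′ single-cell RNA sequencing. Mice of the chronic social defeat (CSD) condition had lived beside an aggressive CD-1 mouse for 14 days, with a short daily encounter, and mice of the home cage (HC) condition had lived for 14 days beside a CD-1 mouse behind a partition that stayed in place. The libraries CSD 1, CSD 2, HC 1 and HC 2 each held the pooled cells of 4 mice of 1 condition. With 2 libraries per condition, p-values of CSD against HC within a class rest on the spread between pools. Those that compare classes rest on how far the differences between classes varied over the libraries. Differences between mice within a pool were not seen.

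IGF1 and IGF2 are secreted hormones that act through the tyrosine kinase receptor IGF1R and, less strongly, through the related insulin receptor. IGF2R carries no kinase and clears IGF2 from the cell surface. IGF binding proteins hold the ligands outside cells and either shield them or deliver them, and the brain endothelium is where insulin and IGF1 of the blood meet their receptors.

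Each library gave 27297599 to 30361474 unique molecular identifiers (UMIs, 1 for each captured RNA molecule) and 2553 to 4934 cells, 14415 cells in all. Marker genes, none of them an IGF system gene, assigned 11592 cells to 12 classes with at least 10 cells in every library. They included capillary endothelial cells (EC, 3328 cells), arterial EC (197), venous EC (117), microglia (4439), pericytes (505), arterial smooth muscle cells (SMC, 451), fibroblasts (90) and choroid plexus cells (1706). Each of the 12 had at least 3 of its own markers among its 10 leading genes, counting the markers of all EC for the EC subtypes. Cells were chosen by these same markers, so this does not test the identity of the classes. Depth differed between classes, from a median of 939 UMIs per cell in astrocytes and 993 in capillary EC to 13659.5 in choroid plexus cells. CSD 2 stood apart, with 32.6% of its UMIs inside cells against 51.8% to 56.8% in the others, and a median mitochondrial share of 8.16% against 6.13% to 7.02%. Pairs of libraries shared 0 to 9 cell barcodes.

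The promoters of 4 genes are shown first, because each stands for another pattern of expression described here. Igf1r stands for the endothelium, Igfbp7 for the vessel wall and fibroblasts, Igfbp2 for the choroid plexus and Igfbp4 for fibroblasts and SMC. Each run covers 250 bases before to 50 bases after a RefSeq transcript start on GRCm38.p6, 5′ to 3′ on the gene's strand. The positions are chr7:67952007-67952306 (plus), chr5:77407996-77408295 (minus), chr1:72824230-72824529 (plus) and chr11:99040994-99041293 (plus) in that order. Capitals mark matches to the GC box GGGCGG or, in Igfbp4, to the TATA box TATAAA, each searched on both strands.
Igf1r: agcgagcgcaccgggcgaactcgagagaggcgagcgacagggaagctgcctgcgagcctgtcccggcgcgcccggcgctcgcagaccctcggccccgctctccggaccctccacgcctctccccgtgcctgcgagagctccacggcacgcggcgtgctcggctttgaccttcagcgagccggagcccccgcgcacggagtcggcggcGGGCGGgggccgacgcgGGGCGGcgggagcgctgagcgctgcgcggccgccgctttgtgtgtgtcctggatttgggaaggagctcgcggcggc
Igfbp7: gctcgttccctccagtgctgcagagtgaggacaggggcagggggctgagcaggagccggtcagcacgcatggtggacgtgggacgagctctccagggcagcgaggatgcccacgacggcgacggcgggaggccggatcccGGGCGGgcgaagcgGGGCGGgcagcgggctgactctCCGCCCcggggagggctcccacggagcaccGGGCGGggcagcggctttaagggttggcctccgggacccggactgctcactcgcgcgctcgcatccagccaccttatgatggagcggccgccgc
Igfbp2: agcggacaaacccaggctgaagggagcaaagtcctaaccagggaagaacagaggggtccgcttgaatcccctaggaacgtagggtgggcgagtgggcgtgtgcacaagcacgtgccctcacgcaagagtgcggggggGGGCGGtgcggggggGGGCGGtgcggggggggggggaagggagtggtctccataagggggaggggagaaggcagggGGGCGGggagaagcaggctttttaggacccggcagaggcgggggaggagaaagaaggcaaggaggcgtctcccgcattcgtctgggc
Igfbp4: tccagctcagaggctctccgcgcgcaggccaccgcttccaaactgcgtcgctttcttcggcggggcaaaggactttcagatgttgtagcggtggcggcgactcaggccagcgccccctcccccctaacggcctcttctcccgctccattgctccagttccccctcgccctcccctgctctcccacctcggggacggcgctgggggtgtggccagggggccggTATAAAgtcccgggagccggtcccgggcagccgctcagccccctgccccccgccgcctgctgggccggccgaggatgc
The Igf1r run held 48 CpG dinucleotides, and 98.8% of the 32851 promoters of this length in the table held fewer, with a median of 7. Igfbp7 held 33 CpG, Igfbp4 27 and Igfbp2 18. GC boxes, found in 35.7% of all promoters, numbered 4 in Igfbp7, 3 in Igfbp2 and 2 in Igf1r, and these letters did not occur in the Igfbp4 run. Another Igfbp2 entry, at chr1:72825137-72825436 (plus) and not printed here, held 14 CpG and 0 GC boxes. Of the 9 genes with an entry Igfbp4 alone held TATAAA, 28 bases before the start, against 13.6% of all promoters. Neither the ETS motif CCGGAAG nor the forkhead motif TGTTTAC occurred on either strand in the entries of the 9 genes, against 8.86% and 3.65% of all promoters.

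All 10 genes were protein coding in the GENCODE annotation of GRCm38. Igfbp2 (chromosome 1, 72824503 to 72852474, plus strand) and Igfbp5 (chromosome 1, 72857932 to 72874884, minus strand) lay end to end with 5457 bases between them. Igf1r spanned 67952827 to 68233668 on the plus strand of chromosome 7, and Insr 3122061 to 3279617 on the minus strand of chromosome 8. Igfbp7 (chromosome 5, 77349240 to 77408041) and Igfbp3 (chromosome 11, 7206086 to 7213923) were on the minus strand, and Igfbp4 (chromosome 11, 99041244 to 99054392) was on the plus strand. Igf1 covered 87858265 to 87937042 of chromosome 10 on the plus strand. Igf2 (chromosome 7, 142650766 to 142666816) and Igf2r (chromosome 17, 12682406 to 12769664) were on the minus strand.

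Levels are given as UMIs of the gene per 1000000 UMIs of the class (CPM), per library and without further scaling. Each class was compared with the mean of the other 11 on summed UMI counts by edgeR's quasi-likelihood test with the library as a covariate, and a gene was called higher at an adjusted p under 0.05 and a log2 fold change of at least 1. All but Igf1, Igf2 and Igf2r passed the filter on low counts, which keeps a gene that is high in 1 class, so that 7 of the 10 genes were tested. The fold changes depend on how classes are scaled, since other size factors, or none, moved the median of all genes by between -0.98 and 0.54 on the log2 scale.

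Across the 12 classes the 7 genes made 25 calls. In capillary EC 4 were called (Igf1r, Insr, Igfbp3 and Igfbp7) beside 16.2% of all 7630 genes tested, in arterial EC 4 (Igf1r, Igfbp3, Igfbp4 and Igfbp7) beside 14.1%, and in venous EC 3 (Igf1r, Insr and Igfbp7) beside 13.5%. In fibroblasts 4 were called (Igfbp2, Igfbp4, Igfbp5 and Igfbp7) beside 11.1%, in arterial SMC 3 (Igfbp2, Igfbp4 and Igfbp7) beside 15.2%, and in pericytes 1 (Igfbp7) beside 12.3%. Igfbp2 and Igfbp5 were called in astrocytes (18.6% of all genes) and in choroid plexus cells (28.1%), Igfbp5 in ependymal cells (23.2%) and Igfbp3 in oligodendrocyte precursors (OPC, 15.9%). The immune classes, microglia (21.6%) and T cells (8.43%), had no call by edgeR, and 0 of their 14 tests had an unadjusted p under 0.05 on the higher side.

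**Figure D1:**
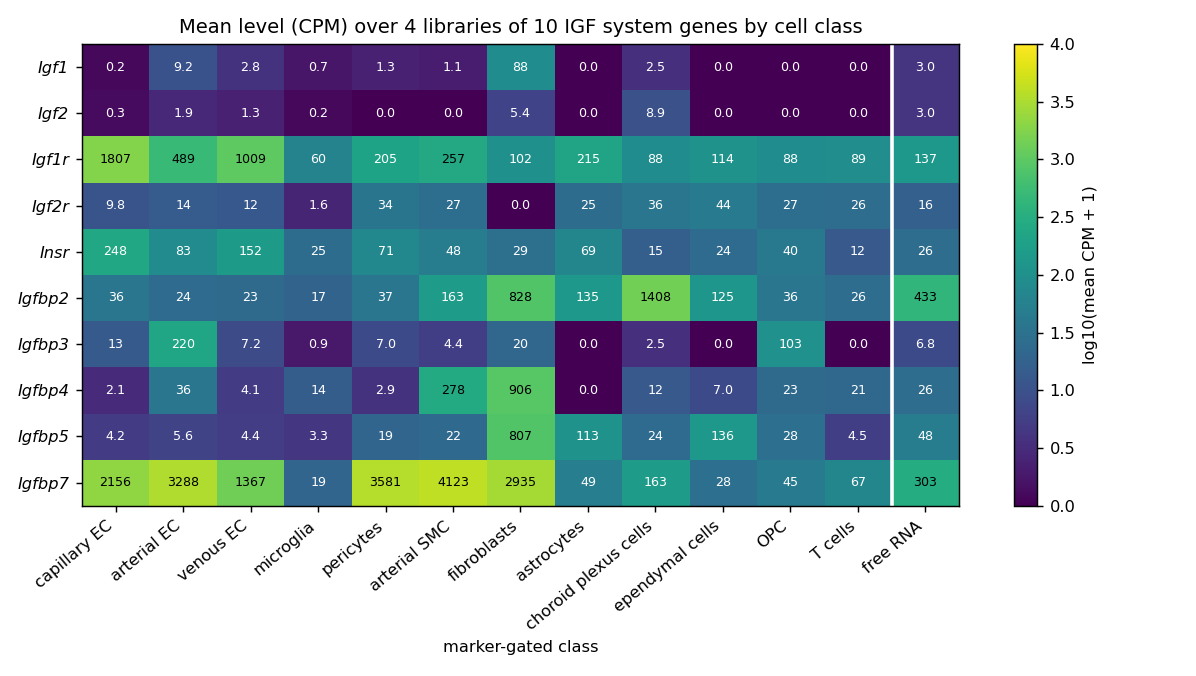
Mean level over the 4 libraries of each IGF system gene (rows) in the 12 tested classes and in free RNA (columns), as numbers in CPM and as colour on a log10(mean CPM + 1) scale. Of the tested classes, Igf1r was highest in capillary EC at 1807 CPM, Igfbp2 in choroid plexus cells at 1408 CPM and Igfbp7 in arterial SMC at 4123 CPM, while Igf2 had its highest mean, 8.87 CPM, in choroid plexus cells.

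Among the ligands, Igf1, the hormone that mediates much of growth hormone action, was almost absent from capillary EC, with 1 UMI in the 4 libraries together. Fibroblasts held the highest level of the tested classes, 131 CPM in CSD 1, 162 in CSD 2, 30.1 in HC 1 and 27.1 in HC 2, from 16, 7, 2 and 2 UMIs. Both CSD libraries lay above both HC libraries, but the gene did not pass the filter there and was not tested. In microglia, which are known to express Igf1 in development and injury, 2, 3, 1 and 2 UMIs were counted in the same order of libraries, or 0.409 to 1.04 CPM.

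Border-associated macrophages, which live at the surface of vessels and in the meninges, had only 5 cells in CSD 2 and were not tested (129 cells in all). Their Igf1 level was 323 CPM in CSD 1, 384 in CSD 2, 304 in HC 1 and 331 in HC 2, from 29, 7, 51 and 11 UMIs. The conditions overlapped, and every library lay above each fibroblast library. Free RNA, taken from barcodes with at most 100 UMIs, held 1.14 to 5.07 CPM.

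Igf2, a fetal growth factor that the adult choroid plexus is known to keep expressing, was rare. Choroid plexus cells held 6.73 CPM in CSD 1, 12.8 in CSD 2, 8.52 in HC 1 and 7.37 in HC 2, pooled 7.99 CPM (exact 95% Poisson interval 6.97 to 9.11). Intervals and floors here cover counting error only. CSD 2 was highest and CSD 1 lowest, so the conditions overlapped. No UMI of Igf2 was found in pericytes, arterial SMC, astrocytes, ependymal cells, OPC or T cells, where a count of 0 allows up to 4.46 CPM in pericytes and 1.31 CPM in arterial SMC (3 UMIs over the 4 libraries).

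The receptor Igf1r had its highest levels in the endothelium. In capillary EC it stood at 1663 CPM in CSD 1, 2531 in CSD 2, 1507 in HC 1 and 1526 in HC 2, a mean of 1807 ± 488 CPM (SD, n = 4). CSD 2 lay above the other libraries, which were close together. Its difference from the mean of the other classes was large against its error (log2 3.37, SE 0.115, adjusted p = 9.30e-40, edgeR). Venous EC followed at 1009 ± 409 CPM and arterial EC at 489 ± 87.6, with no overlap of libraries between these neighbours.

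Outside the endothelium Igf1r stood at 257 ± 59.3 CPM in arterial SMC, 215 ± 47 in astrocytes and 205 ± 49.1 in pericytes, and these neighbours overlapped. The 10 endothelial markers summed to 17.5 to 31.9 per 10000 UMIs in pericytes, against 231 to 262 in capillary EC. They summed to 9.31 to 17.9 in arterial SMC and 2.46 to 7.82 in astrocytes. The part of endothelial RNA in these Igf1r levels was not tested. Microglia held 60.3 ± 10.3 CPM, below the 137 ± 17.7 CPM of free RNA. By cells, 79.3% of capillary EC held a UMI of Igf1r against 12.2% of microglia, although the microglia were deeper (median 2093 UMIs against 993). After thinning each cell to 500 UMIs the shares were 57.7% and 2.84%. Neurons, with 48 cells in all and no test, held 326 to 1017 CPM.

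Insr, the insulin receptor, had the same order of means over the endothelial classes. Capillary EC held 234 CPM in CSD 1, 362 in CSD 2, 191 in HC 1 and 206 in HC 2, venous EC 152 ± 64.6 CPM and arterial EC 83.2 ± 12.3. Here the neighbours overlapped between libraries. The difference from the other classes passed the test in capillary EC (log2 2.54, SE 0.128, adjusted p = 2.34e-29, edgeR) and in venous EC (log2 1.75, SE 0.236, adjusted p = 3.45e-09).

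Igf2r, the scavenger receptor of IGF2, had no clear peak, and 10 of the 11 neighbours in its order of classes overlapped. Its means were 43.7 ± 13 CPM in ependymal cells, 36.1 ± 3.87 in choroid plexus cells, 34.4 ± 12.3 in pericytes and 9.78 ± 2.29 in capillary EC. Fibroblasts held no UMI of it, which allows up to 9.82 CPM.

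Direct contrasts of vessel classes were added after the levels had been seen and count differences in either direction at an adjusted p under 0.05. Between capillary and arterial EC 15.8% of all genes and 4 of the 7 IGF system genes differed. Igf1r was 3.94 times as high in capillary as in arterial EC (log2 1.98, SE 0.202, adjusted p = 1.36e-12, edgeR) and Insr 3.17 times as high (log2 1.67, SE 0.232, adjusted p = 3.39e-08), while Igfbp3 and Igfbp4 were lower in capillary EC. Between capillary and venous EC 6.41% of all genes and 3 of 7 differed, with Igf1r (1.94-fold), Insr (1.65-fold) and Igfbp7 (1.76-fold) higher in capillary EC. Between arterial and venous EC 7.43% of all genes and 5 of 7 differed, with Igfbp3, Igfbp4 and Igfbp7 higher and Igf1r and Insr lower in arterial EC. The Igfbp4 difference (adjusted p = 0.0366, edgeR) rests on 2 UMIs in venous EC and was lost without CSD 1, HC 1 or HC 2 (adjusted p from 0.0581 to 0.342). It was also lost with at least 1000 UMIs per cell, at most 10% mitochondrial UMIs and a stricter marker gate.

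Markers of mural cells, of which arterial SMC held Igfbp4 and both SMC and pericytes held Igfbp7, differed between these endothelial classes. The 9 pericyte markers summed to 25.2 per 10000 UMIs in CSD 1, 33.2 in CSD 2, 11 in HC 1 and 31.8 in HC 2 in arterial EC, with 0 to 1 of them at 0, against 5.46 per 10000 UMIs in CSD 1, 3.96 in CSD 2, 3.42 in HC 1 and 6.3 in HC 2 in venous EC. The 7 SMC markers summed to 19.4 per 10000 UMIs in CSD 1, 23.7 in CSD 2, 8.18 in HC 1 and 18.8 in HC 2 in arterial EC and to 4.48 per 10000 UMIs in CSD 1, 1.15 in CSD 2, 1.59 in HC 1 and 1.35 in HC 2 in venous EC. Among the arterial libraries HC 1 was lowest in both lists and in Igfbp7, at 3109, 4239, 2714 and 3090.2 CPM in CSD 1, CSD 2, HC 1 and HC 2, while Igfbp4 was lowest in CSD 2 (56.9, 13.7, 41.7 and 30.8 CPM), which was highest in both lists. In capillary EC the lists summed to 2.67 to 5.74 and to 0.804 to 2.16 per 10000 UMIs. The part of mural RNA in the endothelial differences of Igfbp4 and Igfbp7 was not tested.

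Of the binding proteins, Igfbp7, a secreted matrix protein that binds IGFs weakly, was spread over EC, mural cells and fibroblasts. Arterial SMC held 3999.5 CPM in CSD 1, 4738 in CSD 2, 4082 in HC 1 and 3672 in HC 2, pericytes 3581 ± 370.4 CPM, arterial EC 3288 ± 659 and fibroblasts 2935 ± 265. Each of these neighbours overlapped the next, so their order was not resolved. Capillary EC followed at 2156 ± 328 CPM and venous EC at 1367 ± 804. Next came choroid plexus cells at 163 ± 7.41 CPM, 8.41-fold below venous EC, and microglia were last at 19.4 ± 10.1 CPM, under the 303 ± 36.7 CPM of free RNA. The 6 classes of EC, mural cells and fibroblasts were those called, with log2 fold changes from 1.84 in venous EC to 4.03 in arterial SMC (adjusted p = 4.73e-14 and 1.66e-39, edgeR).

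By cells, 99.6% of arterial SMC, 90.7% of pericytes and 79.6% of capillary EC held a UMI of Igfbp7, against 3.15% of microglia. Thinned to 500 UMIs the shares were 83.1%, 78.8%, 59.1% and 0.924%. Median depths were 3978, 1013, 993 and 2093 UMIs.

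Igfbp3, the main IGF carrier of the blood, separated arterial from other tested EC. Arterial EC held 311 CPM in CSD 1, 219 in CSD 2, 182 in HC 1 and 169.5 in HC 2, and capillary EC 23.9, 15.4, 5.88 and 5.56 CPM in the same order. Every arterial library lay above every capillary library. Venous EC held 4 UMIs in CSD 2 and 0 in the other libraries. OPC held 103 ± 47.7 CPM from 11, 15, 2 and 3 UMIs. Astrocytes, ependymal cells and T cells held no UMI of Igfbp3, so its fitted fold over the other classes rests on the prior count and is not given (adjusted p = 1.76e-20 in arterial EC, 2.78e-07 in OPC and 0.0211 in capillary EC, edgeR). The call in capillary EC was lost without CSD 1 (adjusted p = 0.0847) and with DESeq2 (0.393). It was also lost with at least 1000 UMIs per cell, at most 10% mitochondrial UMIs and a stricter marker gate.

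Fenestrated EC, the permeable endothelium found in the choroid plexus, numbered 36 cells and were not tested. Their Igfbp3 level was 4730.2 CPM in CSD 1, 2323 in CSD 2, 2368 in HC 1 and 1682 in HC 2, from 185, 11, 73 and 35 UMIs. All 4 libraries lay above every arterial EC library. Over the 4 libraries together, fenestrated EC also held 6158 CPM of Igfbp7 and 346 CPM of Insr, from 588 and 33 UMIs.

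Igfbp4, a binding protein that restrains IGF action, was highest in fibroblasts, and of the tested classes arterial SMC came next. Fibroblasts held 1089.5 CPM in CSD 1, 185 in CSD 2, 1402 in HC 1 and 948 in HC 2, with CSD 2 far below the others on 8 UMIs. Arterial SMC held 263, 344, 278 and 226 CPM in the same order and pericytes 3 UMIs in all. Border-associated macrophages, which were not tested, held 334, 384, 339 and 181 CPM from 30, 7, 57 and 6 UMIs, overlapping arterial SMC. Since astrocytes held no UMI, fitted folds are not given here either, and the calls had an adjusted p of 3.55e-35 in fibroblasts, 4.85e-33 in arterial SMC and 0.034 in arterial EC (edgeR). The call in arterial EC, at 35.8 ± 18.2 CPM, was lost without CSD 1 (adjusted p = 0.351) or HC 1 (0.0783). It was also lost with at least 1000 UMIs per cell, at most 10% mitochondrial UMIs and a stricter marker gate. Between arterial SMC and pericytes 30.5% of all genes and 4 of 7 differed. All 4 were higher in SMC, namely Igfbp4, Igfbp2 (6.21-fold), Igf1r (1.59-fold) and Igfbp7 (1.5-fold). For Igf1r (adjusted p = 0.0244, edgeR) and Igfbp7 (adjusted p = 0.0441, edgeR) the libraries of SMC and pericytes overlapped in CPM. Without size factors the median of all genes in this contrast moved by -0.355 on the log2 scale.

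Igfbp5, a binding protein that attaches to the matrix, was found in fibroblasts, ependymal cells and astrocytes. Ependymal cells, the ciliated lining of the ventricles, held 112 CPM in CSD 1, 142 in CSD 2, 153 in HC 1 and 137 in HC 2, and astrocytes 108, 57, 191 and 94.8 CPM. The conditions overlapped in both. Fibroblasts held 807 ± 646 CPM (log2 5.44, SE 0.23, adjusted p = 3.34e-33, edgeR), and the fold over the other classes was 8.02 in ependymal cells and 5.63 in astrocytes. In choroid plexus cells Igfbp5 stood at 23.9 ± 4.09 CPM, below the 47.6 ± 7.82 CPM of free RNA. Its call there (log2 1.19, SE 0.222, adjusted p = 2.17e-06) was lost with other size factors (log2 0.79), without size factors (0.19), with DESeq2 (0.78) and without HC 1 (0.97). It was also lost with at most 10% mitochondrial UMIs.

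Igfbp2, a major IGF binding protein of cerebrospinal fluid, was highest in choroid plexus cells, which secrete that fluid. They held 1387 CPM in CSD 1, 1422 in CSD 2, 1441 in HC 1 and 1382 in HC 2, close together and with the conditions overlapping. Against the mean of the other classes the difference was large (log2 5.68, SE 0.172, adjusted p = 1.36e-43, edgeR). By cells, 93.7% of choroid plexus cells (median 13659.5 UMIs) and 4.15% of microglia held a UMI, and 48.1% and 1.17% after thinning to 500 UMIs. Fibroblasts came next at 1212, 579, 317 and 1205 CPM, followed by arterial SMC at 163 ± 93. The call in arterial SMC was lost without HC 1, where its log2 fold change was 0.98, and the call in astrocytes without CSD 2 (adjusted p = 0.375).

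In free RNA Igfbp2 stood at 487 CPM in CSD 1, 124 in CSD 2, 569.8 in HC 1 and 550.2 in HC 2. Capillary EC held 50.2, 5.69, 27.5 and 59.5 CPM in the same order and microglia 24.2, 1.73, 20.9 and 23.1 CPM, so that CSD 2 was lowest in all 3. The summed level of the 8 choroid plexus markers in capillary EC was likewise lowest in CSD 2, at 5.42 per 10000 UMIs in CSD 1, 1.19 in CSD 2, 4.34 in HC 1 and 5.53 in HC 2. In CSD 2, 3 of the 8 were at 0. In arterial SMC the highest library held 292 CPM of Igfbp2 and in astrocytes 213 CPM. These highest values lay below free RNA of CSD 1, HC 1 and HC 2 and above that of CSD 2. The part of free RNA in the Igfbp2 of capillary EC, microglia, arterial SMC and astrocytes was not tested.

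**Figure D2:**
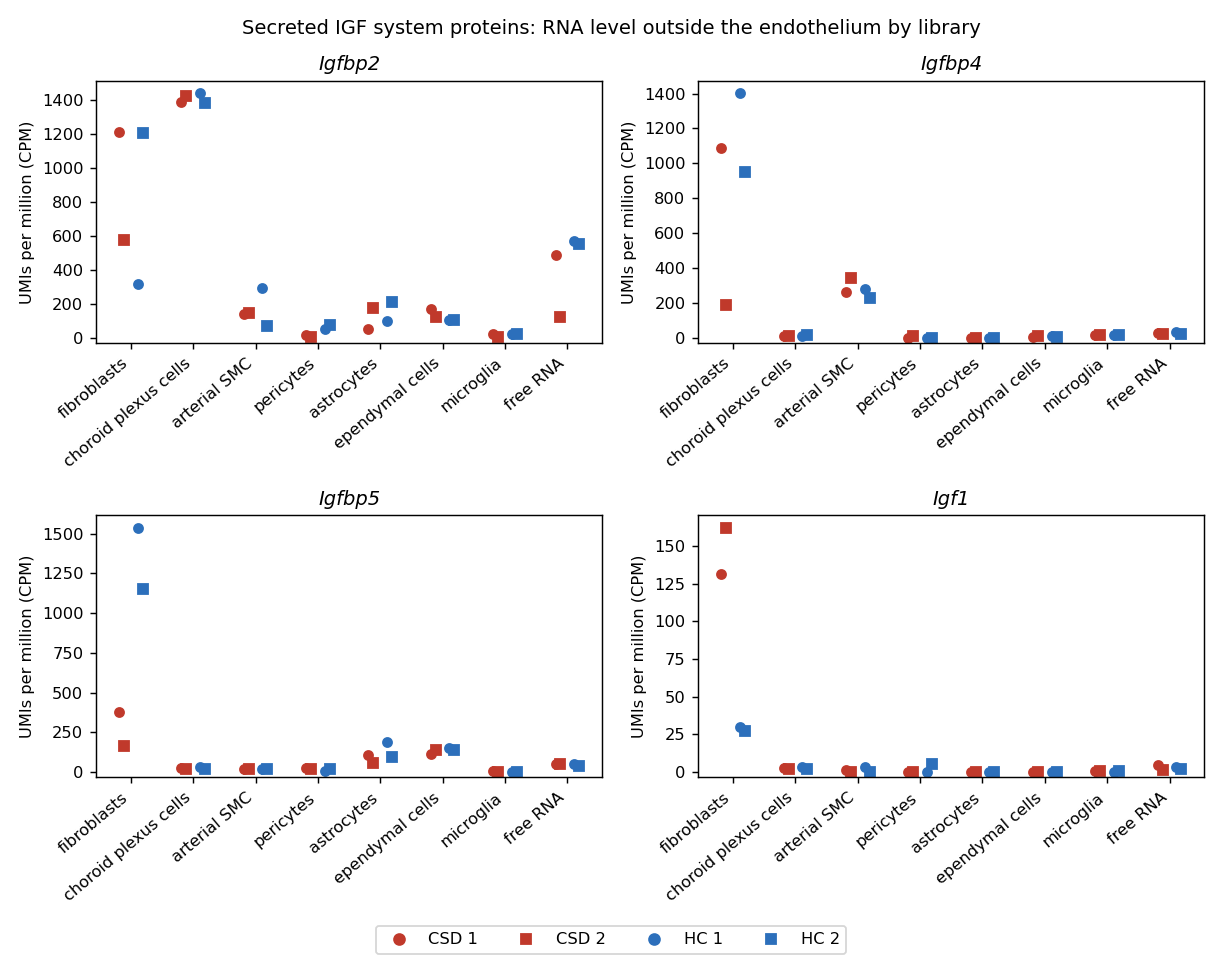
Level of Igfbp2, Igfbp4, Igfbp5 and Igf1 in CPM (vertical axes, linear) in 7 classes outside the endothelium and in free RNA, 1 point per library (CSD red, HC blue, replicate 1 circles, replicate 2 squares). Igfbp2 ran from 1382 to 1441 CPM in choroid plexus cells, while the fibroblast points of Igfbp5 ran from 162 to 1537 CPM with both CSD libraries below both HC libraries.

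Genes with a similar profile were listed by Pearson's r of log2(CPM + 5) class means over the 12 classes, among 11859 genes with at least 20 CPM in a class, for the 9 genes that reached this level. Classes share libraries and depth, and r is given as a description. Igf1r was nearest to Notum (r = 0.963), Slc35f2 (0.962) and Proser2 (0.949), and Insr to Palm (0.96), Sema7a (0.957) and Scarb1 (0.95). Igfbp7 was nearest to Ecm1 (0.964), Igfbp2 to Jph1 (0.962), Igfbp3 to Lypd1 (0.953), Igfbp4 to Sphk1 (0.947), Igfbp5 to Zfhx4 (0.964) and Igf1 to Inmt (0.99). For Igf2r the nearest was Cep170b at r = 0.842.

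The comparison of CSD with HC asked whether chronic social stress altered the IGF system in any vascular class. Summed UMI counts of the 2 CSD and 2 HC libraries were compared within each class by edgeR, and a gene was called at an adjusted p under 0.05 over all genes of the class. In such sums, fewer expressing cells and less RNA per cell cannot be told apart. Of 50 pairs of gene and class that passed the filter 0 were called by edgeR, 9 had an unadjusted p under 0.05 (8 higher and 1 lower in CSD) and DESeq2 called 1. Of all tests in the same 10 classes 4.39% had such a p, 9.21% in capillary EC and 9.2% in venous EC, where 6 of the 9 lay. The lowest adjusted p was 0.155, and 33 of the 50 log2 fold changes were above 0, as were 49.8% over all genes. In microglia, arterial SMC, fibroblasts, ependymal cells and OPC 0% of all genes were called as well, with 653 of 24330 tests at an unadjusted p under 0.05 and 10 calls by DESeq2.

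In capillary EC 6 of the 10 genes were tested and 0 called, beside 0.364% of all genes (32 of 8803). For 4 of them both CSD libraries lay above both HC libraries, as for 16.8% of all genes tested in this class, and 0 lay below in both, beside 23.1%. Insr stood at 234 and 362 CPM in CSD against 191 and 206 in HC (log2 0.64, SE 0.193, unadjusted p = 0.00447, adjusted p = 0.221, edgeR). Igf1r stood at 1663 and 2531 CPM in CSD against 1507 and 1526 in HC (log2 0.51, SE 0.195, unadjusted p = 0.019, adjusted p = 0.386, edgeR), with CSD 1 nearer to HC than to CSD 2. Igfbp3 stood at 23.9 and 15.4 CPM in CSD against 5.88 and 5.56 in HC (log2 1.77, SE 0.47, unadjusted p = 0.00178, adjusted p = 0.155, edgeR), from 20, 19, 6 and 7 UMIs in CSD 1, CSD 2, HC 1 and HC 2. Igfbp7 was the fourth (log2 0.34, SE 0.177, adjusted p = 0.591, edgeR). For Igfbp2 (log2 -0.79, SE 0.557, adjusted p = 0.732) and Igf2r (log2 0.36, SE 0.475, adjusted p = 0.879) the conditions overlapped.

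The values of Igf1r, Insr and Igfbp2 in capillary EC depended on CSD 2. Without CSD 1, CSD 2 alone stood for its condition and was assumed to vary like the HC libraries. The log2 fold change was then 0.76 for Igf1r, 0.89 for Insr and -2.93 for Igfbp2. Without CSD 2 the log2 fold change was 0.21 for Igf1r and 0.32 for Insr. Igfbp3, higher in CSD 1 than in CSD 2, differed by log2 1.44 without CSD 1 and by log2 2.13 without CSD 2. The summed level of the 8 capillary markers in these cells was 111 per 10000 UMIs in CSD 1, 129.7 in CSD 2, 122 in HC 1 and 124 in HC 2, highest in CSD 2. The 8 venous markers summed to 4.78 and 5.61 per 10000 UMIs of capillary EC in CSD against 3.3 and 3.7 in HC. They were higher in both CSD libraries. The part of these lists in the levels of the receptors and of Igfbp3 was not tested.

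In venous EC all 3 tested genes lay higher in both CSD libraries, as did 18.4% of all genes tested there (19.6% lay lower in both), and 0 were called by edgeR beside 0.0458% of all genes. Igf1r stood at 1322 and 1403 CPM in CSD against 683 and 629.7 in HC (log2 1.06, SE 0.239, unadjusted p = 0.00142, adjusted p = 0.223, edgeR). Insr stood at 213 and 201 CPM in CSD against 102 and 90 in HC (log2 1.09, SE 0.405, unadjusted p = 0.0236, adjusted p = 0.437, edgeR), from 41, 28, 9 and 4 UMIs. Igfbp7 stood at 1426 and 2482 CPM in CSD against 729 and 832 in HC (log2 1.35, SE 0.309, unadjusted p = 0.00156, adjusted p = 0.223, edgeR), and was the 1 pair that DESeq2 called (log2 1.35, adjusted p = 0.0289). Without CSD 1, when CSD 2 alone stood for its condition, the log2 fold change was 1.11 for Igf1r and 1.71 for Igfbp7.

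The venous class held 42, 41, 15 and 19 cells in CSD 1, CSD 2, HC 1 and HC 2. Among the 8 markers that define it are Lcn2, Ch25h, Tmem252 and Il1r1, of which Lcn2 and Ch25h are also known as genes of inflamed endothelium. The summed level of the 8 in the class was 52 per 10000 UMIs in CSD 1, 79.4 in CSD 2, 34.5 in HC 1 and 35.3 in HC 2, higher in both CSD libraries. The 8 capillary markers summed to 46.8 and 55.5 per 10000 UMIs of the class in CSD against 33.3 and 43 in HC. They too were higher in both CSD libraries. The part of the class's make-up in the differences of Igf1r, Insr and Igfbp7 was not tested.

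Taking all 4747 EC together, an alternative added after the data had been seen, Igf1r stood at 1310.5 and 2061 CPM in CSD against 1212 and 1292 in HC (log2 0.49, SE 0.213, adjusted p = 0.631, edgeR). Insr (log2 0.62, SE 0.185, adjusted p = 0.38) and Igfbp7 (log2 0.38, SE 0.166, adjusted p = 0.632) kept their direction. Igfbp3 differed by log2 0.88 (SE 0.604, adjusted p = 0.787, edgeR) against 1.77 in capillary EC. The sum also holds the fenestrated EC, whose Igfbp3 level was above that of arterial EC. They numbered 13 cells in CSD 1, 2 in CSD 2, 8 in HC 1 and 13 in HC 2. Their part in this Igfbp3 value was not tested. Igf2r differed by log2 0.07 (SE 0.344), Igfbp2 by -0.80 (SE 0.697), Igfbp4 by 0.19 (SE 0.663) and Igfbp5 by 0.68 (SE 0.49). Of the 8 genes tested here 0 were called by edgeR, beside 9 of all 9991 genes. An unadjusted p under 0.05 was found for 3 of the 8, beside 7.88% of all genes.

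**Figure D3:**
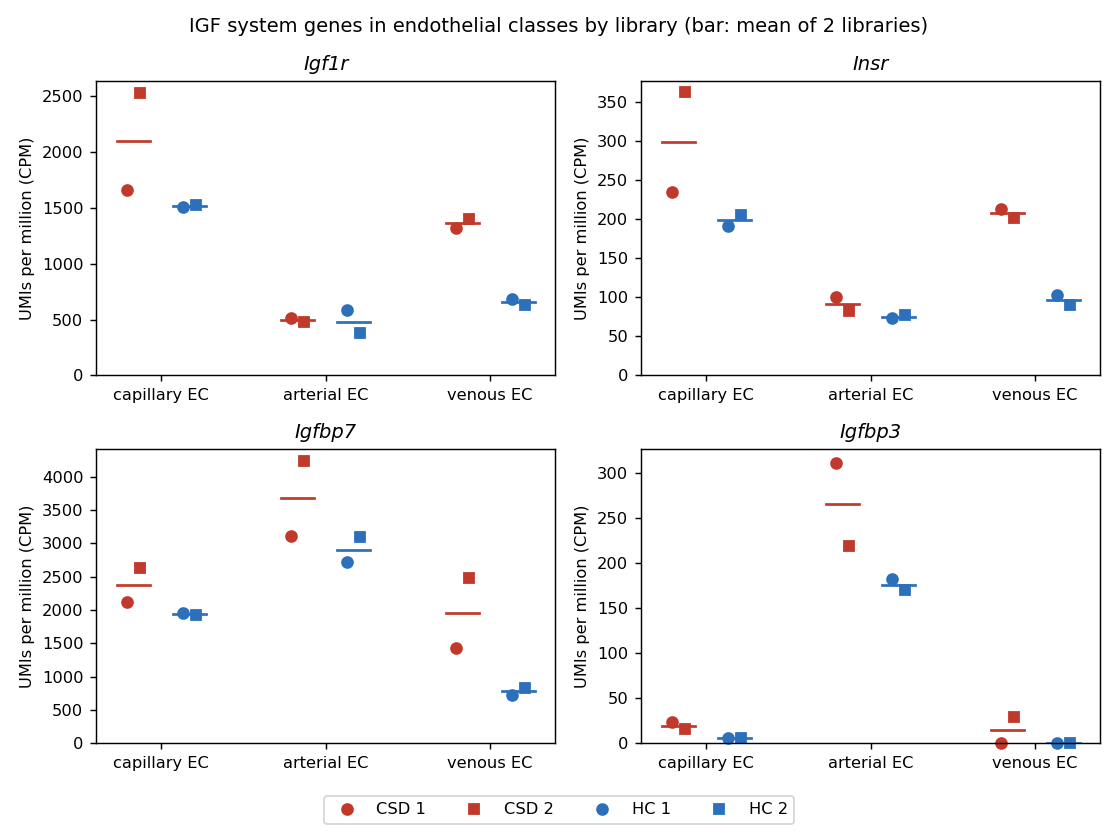
Level of Igf1r, Insr, Igfbp7 and Igfbp3 in CPM (vertical axes from 0) in capillary, arterial and venous EC, 1 point per library (CSD red, HC blue, replicate 1 circles, replicate 2 squares), with a line at the mean of each condition. In venous EC the Igf1r points of CSD and HC were separate (1322 and 1403 CPM in CSD against 683 and 629.7 in HC), while in capillary EC CSD 1 lay close to the HC libraries (1663 and 2531 CPM in CSD against 1507 and 1526 in HC).

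In arterial EC 4 genes were tested and 0 called, beside 0.0339% of all genes. For 3 of the 4 both CSD libraries lay above both HC libraries, as for 15.7% of all genes, and 1 had an unadjusted p under 0.05, beside 5.45%. Igfbp3 stood at 311 and 219 CPM in CSD against 182 and 169.5 in HC without overlap (log2 0.66, SE 0.292, unadjusted p = 0.0365, adjusted p = 0.888, edgeR). In these cells the summed level of the 8 venous markers was 7.8 per 10000 UMIs in CSD 1, 8.07 in CSD 2, 3.13 in HC 1 and 4.01 in HC 2, higher in both CSD libraries. The 5 markers of fenestrated EC, the class with the most Igfbp3, summed to 2.36 per 10000 UMIs in CSD 1, 1.09 in CSD 2, 0.834 in HC 1 and 1.23 in HC 2, highest in CSD 1. Their part in the Igfbp3 difference was not tested. Igf1r stood at 512 and 479 CPM in CSD against 589 and 378 in HC, so the conditions overlapped (log2 0.02, SE 0.273, adjusted p = 0.998). Insr differed by log2 0.35 (SE 0.417) and Igfbp7 by log2 0.32 (SE 0.212). Whether the effect of CSD differed between classes was tested with an interaction term. For capillary minus arterial EC 0 of 6 genes were called beside 0.0661% of all genes, with Igfbp3 at log2 1.21 (SE 0.546, unadjusted p = 0.0272, adjusted p = 0.922, edgeR). For capillary EC minus microglia 0 of 8 were called beside 0% of all genes. Of these 14 tests 1 had an unadjusted p under 0.05, beside 5% and 3.21% of all genes in the 2 contrasts, and DESeq2 called 0.

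In pericytes 3 genes were tested and 0 called, beside 0.0337% of all genes. Insr stood at 74.9 and 125 CPM in CSD against 34.6 and 51.8 in HC (log2 1.25, SE 0.477, unadjusted p = 0.0157, adjusted p = 0.996, edgeR), from 8, 32, 4 and 10 UMIs. Both CSD libraries lay above both HC libraries, as they did for Igf1r (log2 0.58, SE 0.317, adjusted p = 0.996) and for 15.2% of all genes tested. Igfbp7 differed by log2 0.06 (SE 0.25). Per 10000 UMIs of this class, the 10 endothelial markers summed to 31.9 and 19.3 in CSD against 18.7 and 17.5 in HC. Both CSD libraries were higher in this list. The 8 capillary markers summed to 16.4 and 19.4 in CSD against 14.2 and 17.8 in HC, with overlap. The part of endothelial RNA in the Insr and Igf1r differences was not tested.

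Fibroblasts held the single pair that was lower in CSD at an unadjusted p under 0.05, with 4 genes tested and 0 called beside 0% of all genes. Igfbp5 stood at 377 and 162 CPM in CSD against 1537 and 1151 in HC (log2 -2.24, SE 0.438, unadjusted p = 0.00188, adjusted p = 0.169, edgeR), without overlap. Of all genes tested there 19.2% were lower in both CSD libraries, 20.4% were higher in both and 8.47% had an unadjusted p under 0.05. Igfbp2 differed by log2 0.21 (SE 0.672), Igfbp4 by -0.81 (SE 0.682) and Igfbp7 by 0.05 (SE 0.32). With any 1 library left out, the log2 fold change of Igfbp5 lay between -3.09 and -1.86. In each of these fits 1 library alone stood for its condition and was assumed to vary like those of the other. The class held 27, 10, 16 and 37 cells in CSD 1, CSD 2, HC 1 and HC 2. In these cells the summed level of the 10 endothelial markers was 22.9 per 10000 UMIs in CSD 1, 62 in CSD 2, 4.22 in HC 1 and 7.85 in HC 2, and that of the 9 pericyte markers 19.2 per 10000 UMIs in CSD 1, 58.1 in CSD 2, 10.2 in HC 1 and 18.7 in HC 2. The 9 fibroblast markers summed to 92.6 per 10000 UMIs in CSD 1, 121 in CSD 2, 103 in HC 1 and 160.3 in HC 2. The part of these in the Igfbp5 difference was not tested.

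In choroid plexus cells, the deepest class, all 10 genes were tested and 0 called beside 0.0518% of all genes, with 0 at an unadjusted p under 0.05. Igfbp2 differed by log2 -0.03 (SE 0.17) and Igf1r by log2 0.21 (SE 0.168). The ligands Igf1 and Igf2 differed by log2 -0.05 (SE 0.448) and 0.11 (SE 0.295), and the receptors Igf2r and Insr by 0.17 (SE 0.183) and 0.05 (SE 0.212). Of the other binding proteins, Igfbp3 differed by log2 -1.31 (SE 0.798), Igfbp4 by -0.03 (SE 0.24), Igfbp5 by -0.29 (SE 0.198) and Igfbp7 by 0.06 (SE 0.159).

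In astrocytes 0.28% of all genes were called and neither of the 2 genes tested, Igf1r at log2 -0.47 (SE 0.532) and Igfbp2 at -0.34 (SE 0.572), and in T cells 0.295% of all genes while no IGF system gene passed the filter. Microglia, arterial SMC and ependymal cells had 6, 7 and 5 genes tested, with 0 at an unadjusted p under 0.05 beside 1.37%, 2.85% and 3.27% of all genes. In microglia 0 lay higher and 1 lower in both CSD libraries, beside 7.7% and 14.5% of all genes. In microglia Igf1r differed by log2 -0.14 (SE 0.238), Insr by 0.20 (SE 0.237), Igfbp2 by -0.73 (SE 0.776), Igfbp4 by -0.07 (SE 0.275), Igfbp5 by 0.16 (SE 0.599) and Igfbp7 by -0.82 (SE 0.407). In arterial SMC the values were 0.38 (SE 0.219) for Igf1r, 0.10 (SE 0.393) for Igf2r, 0.20 (SE 0.300) for Insr, -0.42 (SE 0.405) for Igfbp2, 0.24 (SE 0.213) for Igfbp4, -0.06 (SE 0.41) for Igfbp5 and 0.16 (SE 0.181) for Igfbp7. In ependymal cells they were 0.20 (SE 0.291) for Igf1r, 0.60 (SE 0.395) for Igf2r, 0.37 (SE 0.276) for Igfbp2, -0.23 (SE 0.268) for Igfbp5 and 0.33 (SE 0.605) for Igfbp7. Standard errors over the 50 pairs ran from 0.159 to 0.798.

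**Figure D4:**
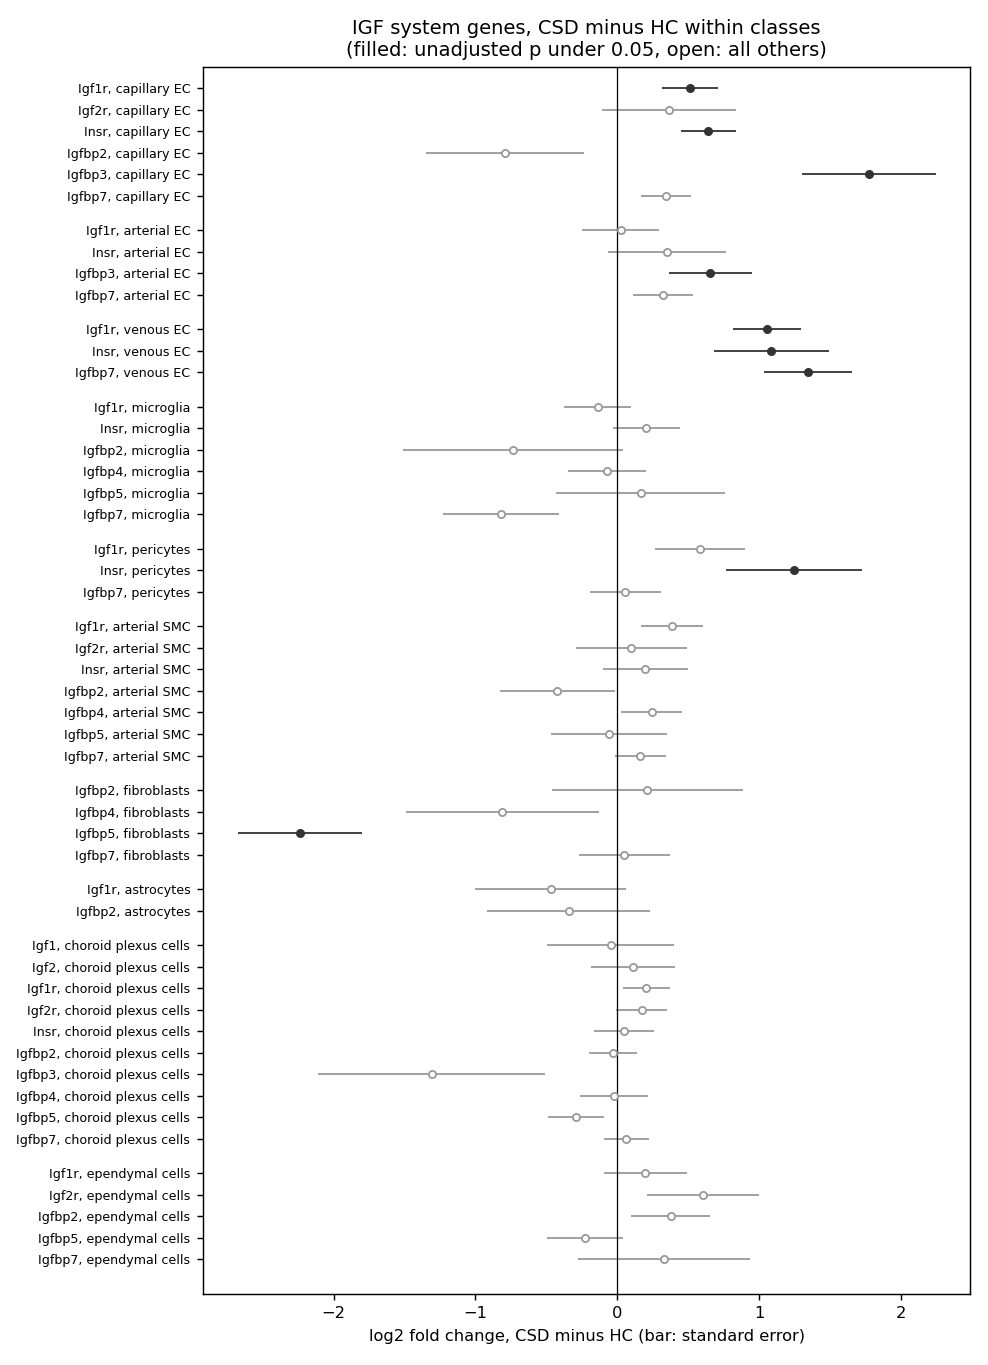
Log2 fold change of CSD minus HC (horizontal axis) with its standard error (line) for the 50 tested pairs of IGF system gene and class, from edgeR. The 9 filled points have an unadjusted p under 0.05, with 8 on the side of higher levels in CSD and Igfbp5 in fibroblasts on the other, and none passed the adjusted threshold.

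As a description of direction, the median log2 fold change of the 6 genes tested in capillary EC was 0.44, beside -0.0041 over all genes tested. It was 1.09 beside -0.0019 for the 3 in venous EC, 0.34 beside -0.011 for the 4 in arterial EC and 0.58 beside 0.0042 for the 3 in pericytes. In microglia it was -0.11 for 6 genes and in choroid plexus cells 0.01 for 10. For the 7 genes in arterial SMC it was 0.16, for the 5 in ependymal cells 0.33, for the 4 in fibroblasts -0.38 and for the 2 in astrocytes -0.41.

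Signalling around the receptors was described with a list of 69 further genes of the pathway. In capillary EC 45 were tested, of which 2 were called higher in CSD and 0 lower, beside 0.364% of all genes called. The median log2 fold change of the 45 was 0.13, beside -0.0041 over all genes. An unadjusted p under 0.05 was found for 5 of the 45 by edgeR, beside 9.21% of all genes. Besides Ddit4 and Trib1 these were Rictor (log2 0.56) and Crk (0.40), higher in CSD, and Grb14 (-0.68), lower. Ddit4, an inhibitor of mTOR that glucocorticoids are known to induce, stood at 261 and 201 CPM in CSD against 109.8 and 102 in HC (log2 1.17, SE 0.19, adjusted p = 0.0147, edgeR). Trib1, a pseudokinase, stood at 58.6 and 70.7 CPM in CSD against 30.4 and 27.8 in HC (log2 1.21, SE 0.229, adjusted p = 0.0303, edgeR). The conditions did not overlap for either. They were 1 of 11 tested genes of mTOR and S6K and 1 of 15 of PI3K and AKT, and no call was made among 4 adaptors, 5 genes of FOXO and GSK3 and 6 other receptors and receptor inhibitors. With 1 library left out, the log2 fold change ran from 0.95 to 1.39 for Ddit4 and from 1.09 to 1.31 for Trib1. Trib1 was not called without CSD 2 or without HC 2. By edgeR it was also not called with at least 1000 UMIs per cell (adjusted p = 0.093) or at most 10% mitochondrial UMIs (0.0574). The same held with a stricter marker gate (0.149) and without size factors (0.0793), while Ddit4 was called under each of these filters, gates and scalings. DESeq2 called Ddit4 and gave Trib1 no adjusted p. In all EC together Ddit4 (log2 0.97, adjusted p = 0.0826, edgeR) and Trib1 (log2 0.98, adjusted p = 0.143) did not pass.

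In the other 11 classes 0 of 212 tests of list genes were called by edgeR, 16 had an unadjusted p under 0.05 and DESeq2 called 0. The share of all genes at that p in these classes was 3.46%. Ddit4 was among the 16 in microglia (log2 2.10, SE 0.44), venous EC (log2 1.34, SE 0.417) and pericytes (log2 1.12, SE 0.504). Its log2 fold change was 0.34 in arterial EC, 0.14 in arterial SMC, 0.24 in choroid plexus cells and -0.69 in ependymal cells. The binding protein gene Igfbp6 was among the 16 in fibroblasts, higher in CSD (log2 2.03, SE 0.493). Of the 16, only Grb14 in arterial EC (log2 -1.07, SE 0.511) and Ide in choroid plexus cells (log2 -0.42, SE 0.19) were lower in CSD. Between classes, 8 of 37 tested list genes were called higher in capillary EC (16.2% of all genes), 7 in venous EC (13.5%) and 2 in arterial EC (14.1%). More were called in microglia (12, beside 21.6%), fibroblasts (11, beside 11.1%), pericytes (10, beside 12.3%) and arterial SMC (9, beside 15.2%), and the other 5 classes had 3 to 6. Grb10 and Grb14, adaptors that restrain insulin and IGF1 receptor signalling, were among those of capillary and venous EC (log2 3.03 and 3.25 in capillary EC, 2.55 and 2.73 in venous EC). Grb10 was also called in pericytes (log2 2.69), fibroblasts (1.94), choroid plexus cells (1.85) and arterial SMC (1.48). Grb14 was also called in OPC (log2 2.16), arterial EC (1.86) and choroid plexus cells (1.84).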

How the data were processed

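Single-cell RNA was measured in 4 libraries, 2 per condition, grouped by the labelled condition. The values are UMI counts per gene and barcode, which the authors deposited as matrices made with Cell Ranger (4.0 in the submitters' processing notes, with other versions in the file header and the methods) on GRCm38 (mm10). Cells with at least 500 UMIs, at least 250 genes and at most 25% mitochondrial UMIs were kept. A cell joined a class with at least 3 UMIs from at least 2 markers and a summed marker share of at least 20% of that of the class's strongest cells (the top 100). No doublet caller was run, and cells with markers of 2 classes (675) or of none (725) were left out, as were EC of no single subtype (1069), which enter only the sum of all EC. Counts were summed per library and class and tested with edgeR 4.0.16 (quasi-likelihood, TMM, Benjamini-Hochberg adjustment over all genes of a fit, R 4.3.3), with DESeq2 1.42.0, other size factors, filters, gates and left-out libraries as alternatives. The standard errors given for edgeR are the absolute log2 fold change divided by the square root of the F statistic of its test. The fits were also run on simulated counts that gave all genes of a fit the same spread between libraries. Those runs do not show how the fits hold for these pools. Total counts were 27297599 to 30361474 UMIs per library. The rule was to name all 10 genes in each comparison, list genes that passed the threshold in CSD minus HC, and similar genes by rank of r. In CSD minus HC each gene that passed the filter is given within its class, while class contrasts and interactions name the genes past a threshold and count the rest. The genes, lists and tests were chosen with earlier results of these data known.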

Additional observations from a re-analysis of the deposited data

How the results depend on the processing

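Of the IGF system pairs higher in CSD, 0 with edgeR, 1 was called by DESeq2, 3 without the filter on low counts, 3 with a replicate block and 0 to 4 when 1 library was left out. Pairs lower in CSD went from 0 to 1 without the filter, 1 with the block and 1 to 3 when 1 library was left out. Without the filter and with the block the pairs were Igfbp3 in capillary EC, Igf1r and Igfbp7 in venous EC and, lower, Igfbp5 in fibroblasts. The cause was not tested. When 1 library is left out, its condition rests on 1 library, which is assumed to vary like those of the other condition. Calls of class against class stayed within 22 to 33 around 25, and the interaction called no IGF system gene wherever it was run. The labels do not state whether libraries with the same replicate number belong together. The difference between the CSD libraries was correlated over genes with the difference between the HC libraries, in order of replicate number. Over the classes r ran from -0.0027 in OPC to 0.402 in microglia. A replicate effect shared by the conditions was not tested.

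Over all genes, the 32 calls of CSD minus HC in capillary EC became 142 without the filter, 123 with the replicate block, 12 with at least 1000 UMIs per cell, 10 without size factors, 9 in all EC, and 33 to 471 when 1 library was left out (471 without CSD 1, 49 without CSD 2). The 46 calls over all classes became 317, 208, 24 and 21 in the first 4 of these settings and 92 to 723 when 1 library was left out. Class contrasts gave 15126 calls, and 28231 without the filter. The 5 interaction calls became 0 with DESeq2, 1 with at most 10% mitochondrial UMIs and 2 to 19 when 1 library was left out. The settings without size factors and with all EC were chosen after seeing the data.

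With 2 libraries per condition, the standard errors of the 50 pairs were largest for Igfbp3 in choroid plexus cells (0.798) and Igfbp2 in microglia (0.776). Low counts limit the levels of Igf1, Igf2 and Igfbp3.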
